A study of Homo sapiens with 6 samples.

Results

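ATP-binding cassette (ABC) transporters are membrane proteins that use the energy of ATP to move lipids, drugs, peptides, metal complexes and conjugated metabolites across a membrane. Their genes were taken by biotype and symbol: every protein-coding gene whose name begins with ABCA, ABCB, ABCC, ABCD, ABCE, ABCF or ABCG and a digit. The rule used no measured value and found 45 genes, of 58735 genes in the table and 19951 that are protein-coding. Human AZ-521 cells of wild-type genotype had received 10 µM of the plant saponin platycodon D (PD) or the solvent DMSO, each for 48 h, and 3 samples per group were sequenced as messenger RNA. The study asked how PD acts on gastric cancer cells. AZ-521 is labelled as a gastric cancer line, and cell banks list it as a duodenal carcinoma line. It is 1 line, and nothing in the labels says that the replicates were separate cultures, and p-values therefore cover a spread between samples that may be no more than technical.

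ABC proteins share a nucleotide-binding domain that hydrolyses ATP and differ in what they carry. Members of the B, C and G subfamilies that pump drugs and conjugates out of cells limit the uptake and action of many anticancer agents. Members of the A and G subfamilies export sterols and phospholipids, the D subfamily carries acyl-CoA into peroxisomes or cobalamin out of lysosomes, and the E and F proteins have no membrane domain and work on the ribosome. In epithelia of the gut, efflux pumps of this family at the cell surface return drugs and bile constituents to the lumen.

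Reads over genes numbered between 15328454 and 15821524 in PD samples and between 14915538 and 16341687 in DMSO samples. Levels are FPKM, which scales the reads of a gene to its length and to the sample. The first principal component, with 59.5% of the variance, separated PD from DMSO, and the second, with 18.9%, set PD replicate 3 and DMSO replicate 1 apart from the other samples. Epithelial and gastric markers did not bear out the labelled cell type: KRT18, KRT19, TFF1, TFF2 and GKN1 were listed at 0 in all 6 samples, CDH1 reached at most 0.0216 FPKM and EPCAM at most 0.258 FPKM. KRT8, MUC6, CLDN18 and MUC5AC stayed at or under 0.484 FPKM. Of 5 intestinal markers, CDX2 lay between 0.979 and 1.59 FPKM, CDX1 was listed at 0 and VIL1, CDH17 and MUC2 stayed at or under 0.0470 FPKM. Of 4 fibroblast and mesenchymal markers, VIM lay between 72.4 and 89.0 FPKM in PD samples and between 95.6 and 107 FPKM in DMSO samples. The others, COL1A1, COL1A2 and PDGFRB, reached at most 0.782, 0.0292 and 0.164 FPKM. The part of VIM in the results was not tested. Fewer cells of a type and less RNA per cell cannot be told apart in such samples.

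Of the 45 members, 20 reached an FPKM of 1 or more in 3 or more samples and were tested, and 25 lay below that filter. A gene rose or fell where limma's moderated test on log2(FPKM + 1) gave a Benjamini-Hochberg adjusted p under 0.05 over all 13579 genes tested. Of these, 4 members rose (among them ABCB8, ABCC2 and ABCC1), 3 fell (ABCD2, ABCA3 and ABCC4) and 13 did not pass. Among all genes tested, 14.3% rose, 12.7% fell and 27.1% did either, beside 35.0% of the 20 tested members. The share of members lay close to that background. The median log2 fold change was 0.09 over the tested members and 0.00 over all genes tested. ABCD2 was the sole tested member that also changed at least 2-fold, a size that 3.82% of all tested genes reached. The PD and DMSO values did not overlap for 8 of the 20 tested members (40.0%), against 44.4% of all genes tested. They did not overlap either for 4 of the 25 members below the filter (16.0%), which were ABCG2, ABCA13, ABCC9 and ABCA4. The share over all genes below the filter was not computed, so this count has no background. For ABCA4, reads were 1, 1 and 5 in PD samples and 0, 1 and 0 in DMSO samples. Its lowest PD value and highest DMSO value each stood for 1 read and differed by the scaling alone. Scaling every sample to the same FPKM total lowered the median of all genes by 0.13 on the log2 scale and turned the member counts to 3 higher and 5 lower, with the calls of all genes at 1290 higher and 3158 lower in place of 1947 and 1731. These were 32.8% of all genes in either direction. Without PD replicate 3 and DMSO replicate 1, 5 members were higher and 3 were lower, beside 33.6% of all genes.

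**Figure D1:**
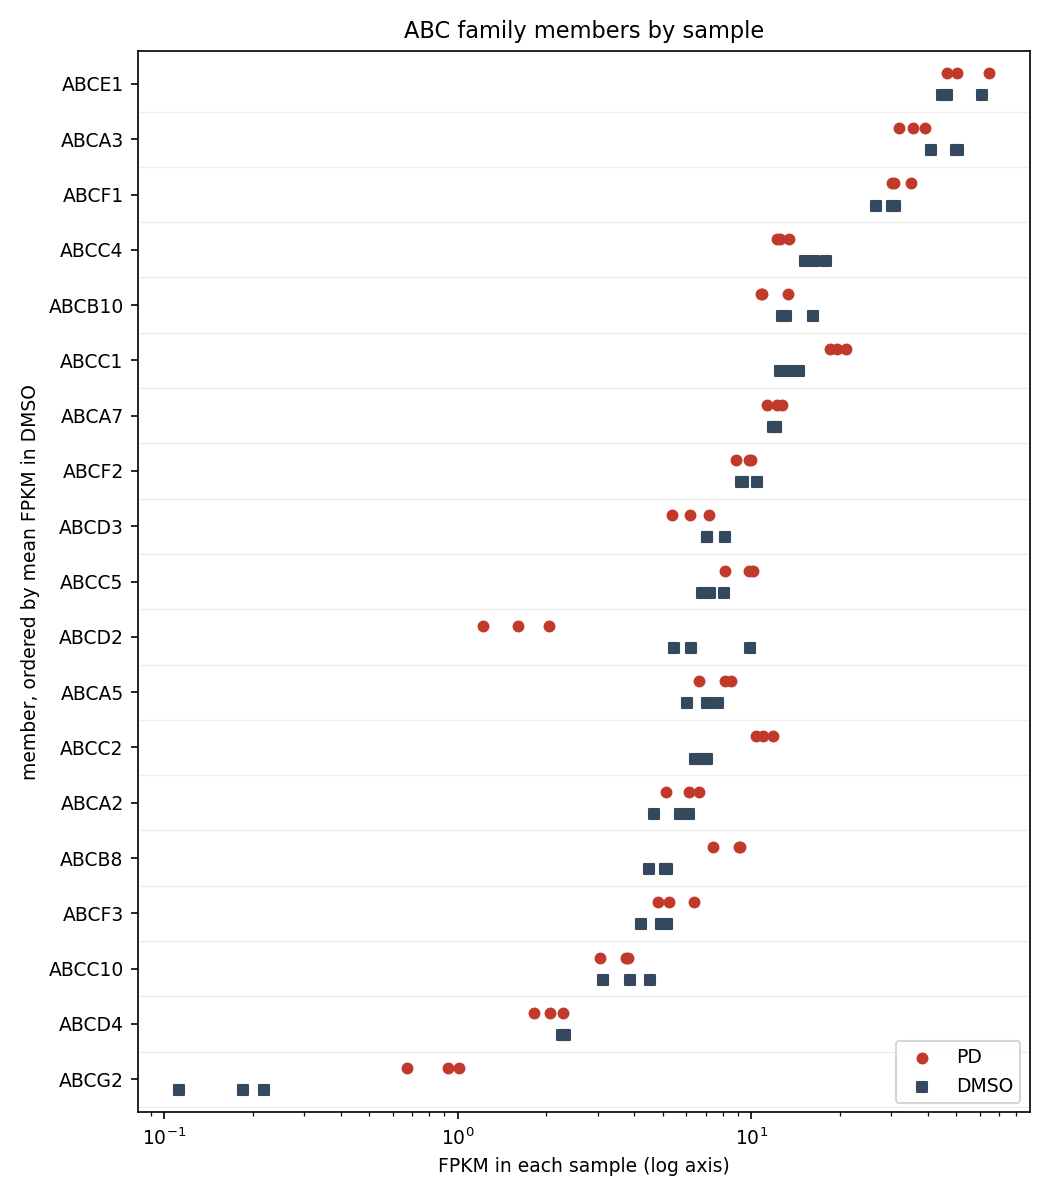
FPKM in each sample (log axis) for 18 of the tested ABC members and ABCG2, ordered by their mean in DMSO, with PD samples as circles above DMSO samples as squares. ABCD2 lies between 1.22 and 2.04 FPKM in PD and between 5.46 and 9.91 FPKM in DMSO, while ABCE1 and ABCF1 have overlapping groups.

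**Figure D2:**
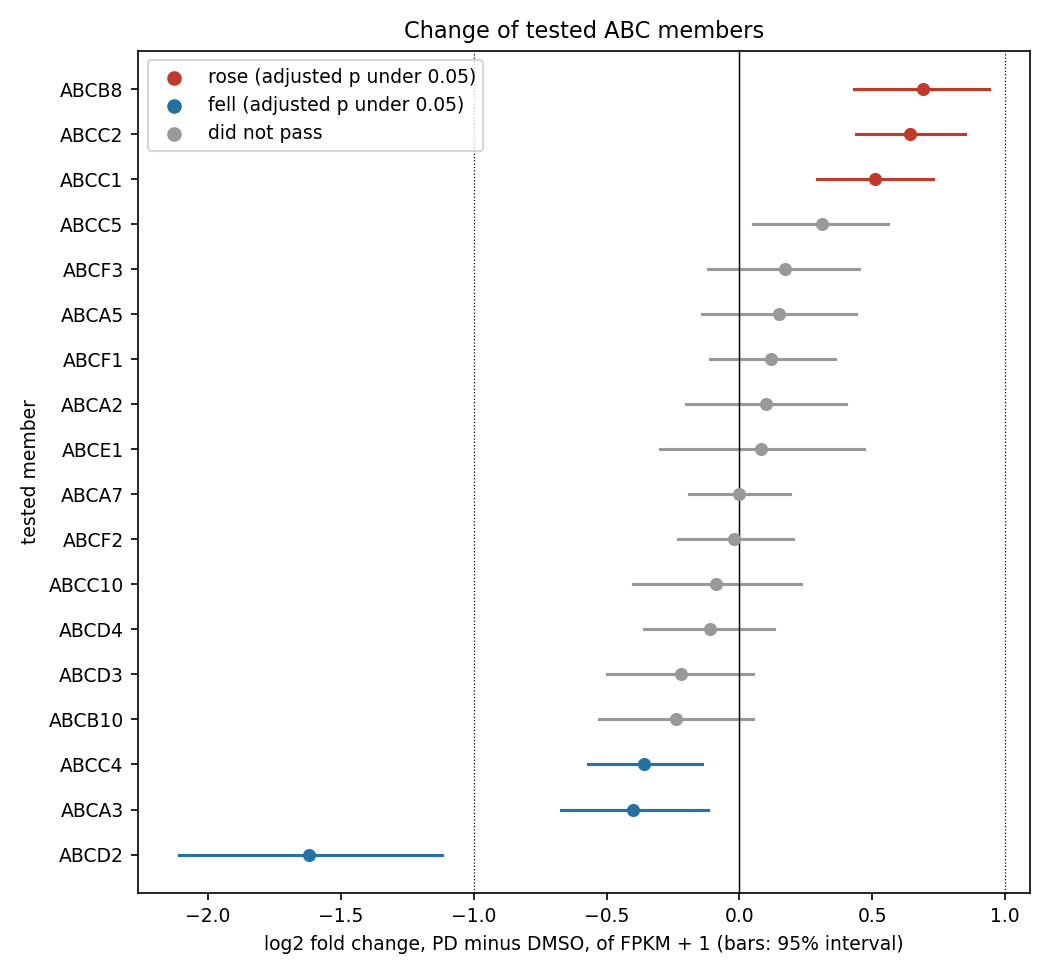
Log2 fold change of FPKM + 1, PD minus DMSO, for 18 of the tested members with its 95% interval; dotted lines mark a 2-fold change. ABCB8, ABCC2 and ABCC1 rose, ABCD2, ABCA3 and ABCC4 fell, and only the ABCD2 interval lies wholly beyond 2-fold.

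The summed FPKM of the family overlapped between the groups. The FPKM values of all 45 members added up to 265 ± 1.39 in PD samples and 263 ± 4.78 in DMSO samples (SD, n = 3 each). These sums ran from 264 to 266 in PD samples and from 259 to 268 in DMSO samples. FPKM totals over all genes were higher in every PD sample (253446 to 273472) than in every DMSO sample (230074 to 237580). The comparison of family sums thus depends on the scaling between samples. As a share of the sample's FPKM total, the family sum was lower in every PD sample than in every DMSO sample. These shares were not tested. ABCE1, ABCA3 and ABCF1 were the 3 most abundant members in the means of both groups. At 32.0 to 39.2 FPKM in PD samples and 41.1 to 50.5 FPKM in DMSO samples, ABCA3 was the most abundant member with a membrane domain. Below these lay ABCC1, ABCC4, ABCB10, ABCA7 and ABCC2 with means between 11.1 and 19.7 FPKM in PD samples. Neighbours in that order often lay within each other's replicate range.

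Among the drug and conjugate pumps, 2 of 5 tested members rose and 1 fell. ABCC2, known as MRP2 (ENSG00000023839, chr10:99782640-99852594, plus strand in GRCh38, the build of all gene positions here), exports glutathione and glucuronide conjugates, bilirubin conjugates among them, across the apical face of polarised cells. It had 11.0, 11.9 and 10.4 FPKM in PD samples, against 6.83, 7.05 and 6.44 FPKM in DMSO samples. All 3 PD values stood well above all 3 DMSO values, and replicates lay close together. ABCC2 averaged 11.1 ± 0.759 FPKM in PD samples and 6.77 ± 0.308 FPKM in DMSO samples (SD, n = 3 each), a log2 fold change of 0.64 ± 0.09 (SE, limma adjusted p = 0.00269).

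ABCC1, or MRP1 (ENSG00000103222, chr16:15949577-16143074, plus strand), is the related pump of the basolateral face, which carries leukotriene C4 and other glutathione conjugates. It had 19.6, 21.0 and 18.5 FPKM in PD samples, against 12.5, 14.6 and 13.6 FPKM in DMSO samples, again with no overlap. ABCC1 rose by 0.51 ± 0.09 on the log2 scale (SE, limma adjusted p = 0.00837). ABCC4, or MRP4 (ENSG00000125257, chr13:95019829-95301475, minus strand), exports cyclic nucleotides, prostaglandins and nucleotide analogues. It went the other way, with 12.2, 12.5 and 13.4 FPKM in PD samples, against 18.0, 16.4 and 15.2 FPKM in DMSO samples. Every PD sample lay below every DMSO sample, with the closest values at 13.4 FPKM in PD and 15.2 FPKM in DMSO. ABCC4 fell by 0.36 on the log2 scale (SE 0.09, limma adjusted p = 0.0279), and the adjusted p was 0.0863 or 0.0969 when PD replicate 1 or 2 was left out and 0.0532 or 0.0850 when DMSO replicate 1 or 2 was.

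Within single samples the order of these 3 pumps differed between the groups. ABCC1 was 1.60, 1.68 and 1.38 times as abundant as ABCC4 by FPKM in PD samples, and 0.693, 0.892 and 0.889 times in DMSO samples. So ABCC1 exceeded ABCC4 in every PD sample and lay under it in every DMSO sample. The ratio of ABCC2 to ABCC4 was 0.898, 0.957 and 0.781 in PD samples and 0.379, 0.430 and 0.422 in DMSO samples. For each of 4 such ratios, chosen after the values were seen, the 2-sided exact permutation test gave p = 0.1, the smallest that 3 against 3 samples allow, and 0.1 after Benjamini-Hochberg adjustment. A ratio of this kind shows unequal change, and it does not show which gene moved.

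ABCC5, or MRP5, a pump of cyclic nucleotides, stood just outside the threshold. It had 9.83, 10.1 and 8.16 FPKM in PD samples, against 6.80, 8.05 and 7.26 FPKM in DMSO samples. The groups were separate by a narrow margin between 8.16 FPKM in PD replicate 3 and 8.05 FPKM in DMSO replicate 2. Its log2 fold change was 0.31 ± 0.11 (SE, limma adjusted p = 0.0748), and over 17 alternatives it ran from 0.16 under equal totals (adjusted p = 0.359) to 0.39 without PD replicate 3 (adjusted p = 0.0354), with a call in 4 of them. ABCC10, or MRP7, which confers resistance to taxanes, had 3.79, 3.74 and 3.06 FPKM in PD samples, against 3.12, 4.52 and 3.87 FPKM in DMSO samples. The ABCC10 groups overlapped, and the 95% interval of the log2 fold change was -0.40 to 0.23 (limma adjusted p = 0.665). It shares 79 exon bases with DLK2 on the opposite strand. The 12 genes of the drug and conjugate class summed to 57.9 ± 2.97 FPKM in PD samples and 49.0 ± 2.26 FPKM in DMSO samples (SD, n = 3 each). These sums did not overlap between the groups, a ratio of means of 1.18. FPKM totals over all genes were separate in the same direction (253446 to 273472 in PD samples, 230074 to 237580 in DMSO samples). Taken as shares of these totals, the class sums overlapped between the groups. PD replicate 3 held 54.9 of 273472 FPKM, a smaller share than the 51.5 of 230074 FPKM in DMSO replicate 2. The shares were not tested.

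**Figure D3:**
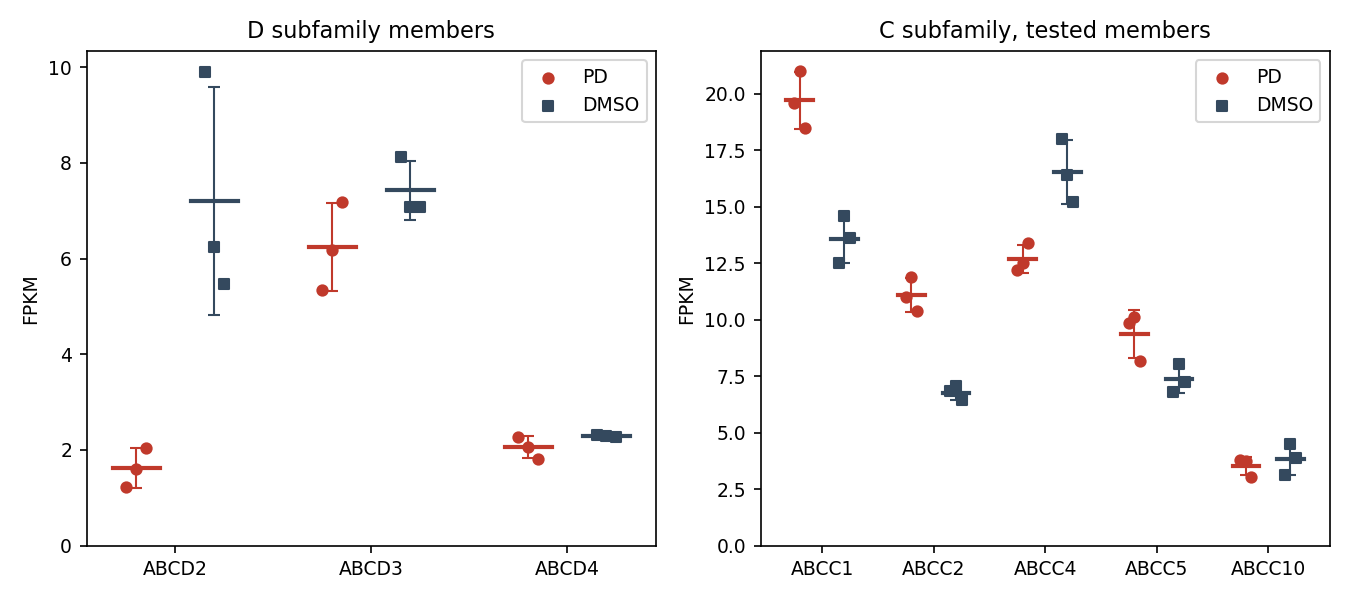
FPKM (linear axis from 0) of ABCD2, ABCD3 and ABCD4 and of the 5 tested members of the C subfamily, PD left of DMSO, with the 3 samples as points, the mean as a bar and the SD as whiskers. ABCC1 and ABCC2 are higher in all PD samples, ABCC4 and ABCD2 are lower in all PD samples, and ABCD4 lies near 2 FPKM in both groups.

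In the D subfamily, ABCD2 fell. ABCD2 is a peroxisomal transporter that works as a dimer and brings very-long-chain fatty acyl-CoA to beta-oxidation. Its gene lies on the minus strand (ENSG00000173208, chr12:39550033-39619751). ABCD2 had 1.22, 1.61 and 2.04 FPKM in PD samples, against 9.91, 6.24 and 5.46 FPKM in DMSO samples. The highest PD sample was thus far under the lowest DMSO sample, and DMSO replicate 1 stood highest of all. ABCD2 averaged 1.62 ± 0.411 FPKM in PD samples and 7.20 ± 2.37 FPKM in DMSO samples (SD, n = 3 each). It fell by 1.62 on the log2 scale (SE 0.21, 95% interval -2.11 to -1.12, limma adjusted p = 0.00229), a scale that understates changes at low FPKM. Without PD replicate 3 and DMSO replicate 1 the change was -1.51 (adjusted p = 0.00261), and voom on reads recovered from the FPKM values gave -2.13 (adjusted p = 0.000110).

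ABCD3, the peroxisomal carrier of branched-chain and dicarboxylic acyl-CoA and of bile acid precursors, had 5.35, 6.18 and 7.18 FPKM in PD samples, against 8.13, 7.07 and 7.08 FPKM in DMSO samples. Only PD replicate 3 reached the DMSO range. Its log2 fold change was -0.22 ± 0.12 (SE, limma adjusted p = 0.195), with an adjusted p of 0.0304 under equal totals, 0.0493 after a correction for GC content and up to 0.459 in the other alternatives. ABCD4, which works in the lysosome on cobalamin, had 2.28, 2.06 and 1.82 FPKM in PD samples, against 2.32, 2.30 and 2.27 FPKM in DMSO samples (log2 fold change -0.11 ± 0.10, limma adjusted p = 0.459). The ABCD4 exons share 624 bases with AC005519.1 on the same strand, so reads of the 2 genes may be mixed. The ratio of ABCD2 to ABCD3 was 0.228, 0.260 and 0.284 in PD samples and 1.22, 0.883 and 0.771 in DMSO samples, so that the groups lay apart.

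Of the mitochondrial members, ABCB8 rose. ABCB8 (ENSG00000197150, chr7:151028422-151047782, plus strand) is a transporter of the inner mitochondrial membrane linked to iron export from mitochondria in mouse heart. It had 9.16, 9.10 and 7.38 FPKM in PD samples, against 4.47, 5.08 and 5.18 FPKM in DMSO samples. PD replicate 3 was the lowest of the PD samples and still stood above every DMSO sample. ABCB8 averaged 8.55 ± 1.01 FPKM in PD samples and 4.91 ± 0.385 FPKM in DMSO samples (SD, n = 3 each), a log2 fold change of 0.69 ± 0.11 (SE, limma adjusted p = 0.00480), the largest rise among tested members. Its exons share 207 bases with the antisense gene AC010973.1, which reached at most 0.382 FPKM.

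ABCB10, a mitochondrial member that takes part in haem synthesis, did not pass. It had 10.8, 10.9 and 13.3 FPKM in PD samples, against 16.2, 12.7 and 13.1 FPKM in DMSO samples. The groups overlapped, and PD replicate 3 and DMSO replicate 1 were the highest of their group. The log2 fold change was -0.24 ± 0.13 (SE, limma adjusted p = 0.192), and it was -0.39 with an adjusted p of 0.0289 under equal totals and between -0.33 and -0.14, with no call, in the other alternatives. The ratio of ABCB8 to ABCB10 was 0.850, 0.834 and 0.555 in PD samples and 0.276, 0.400 and 0.396 in DMSO samples.

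Lipid exporters showed 1 fall. ABCA3 (ENSG00000167972, chr16:2275881-2340746, minus strand) loads phospholipids into lamellar bodies and is best known from the surfactant of the lung. It had 39.2, 35.6 and 32.0 FPKM in PD samples, against 41.1, 49.9 and 50.5 FPKM in DMSO samples. The groups were separate, with 39.2 FPKM in PD replicate 1 close to 41.1 FPKM in DMSO replicate 1. ABCA3 fell by 0.40 on the log2 scale (SE 0.12, limma adjusted p = 0.0440) and stood just inside the threshold. Its adjusted p lay above 0.05 in 5 of the 6 fits that left out 1 sample, all but the one without DMSO replicate 1, with 0.138 as the highest.

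The other tested members of the A subfamily did not pass. ABCA7, a phospholipid exporter whose variants affect the risk of Alzheimer's disease, lay between 11.3 and 12.7 FPKM in PD samples and between 11.9 and 12.1 FPKM in DMSO samples. Its 95% interval for the log2 fold change was -0.19 to 0.19 (limma adjusted p = 0.990). ABCA2, an endolysosomal protein of sterol and sphingolipid handling, lay between 5.14 and 6.64 FPKM in PD samples and between 4.68 and 6.16 FPKM in DMSO samples (log2 fold change 0.10 ± 0.13, adjusted p = 0.601). ABCA5, an endolysosomal protein of less settled substrate, lay between 6.65 and 8.56 FPKM in PD samples and between 6.05 and 7.73 FPKM in DMSO samples (0.15 ± 0.12, adjusted p = 0.421). ABCA5 shares 318 exon bases with ABCA10 on the same strand.

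None of the 4 ribosome-associated members passed limma's test, in the fit described or in any of the 17 alternatives. In the fit described, their smallest unadjusted p was 0.209. ABCE1, which splits ribosomes after termination, had 46.4, 50.4 and 64.7 FPKM in PD samples, against 61.0, 44.6 and 46.6 FPKM in DMSO samples. PD replicate 3 and DMSO replicate 1 stood apart from their groups here too, and the log2 fold change of 0.08 ± 0.16 (SE, adjusted p = 0.741) changed sign to -0.05 without PD replicate 3. ABCF1, which binds the initiation factor eIF2, had 35.1, 30.7 and 30.2 FPKM in PD samples, against 26.7, 30.2 and 30.9 FPKM in DMSO samples (0.12 ± 0.10, adjusted p = 0.396). ABCF2 and ABCF3, its less studied relatives, had log2 fold changes of -0.02 ± 0.09 (adjusted p = 0.915) and 0.17 ± 0.12 (adjusted p = 0.345). The ABCF2 level ran from 8.90 to 10.0 FPKM in PD samples and from 9.23 to 10.5 FPKM in DMSO samples. For ABCF3 it was 4.80 to 6.38 FPKM in PD samples and 4.20 to 5.16 FPKM in DMSO samples. Together the 4 genes held 101 ± 6.71 FPKM in PD samples and 94.5 ± 6.07 FPKM in DMSO samples (SD, n = 3 each). ABCE1 shares 276 exon bases with OTUD4 and 469 with ANAPC10, both on the opposite strand, and ABCF2 shares 1914 with AC021097.2, which was listed at 0.

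All 5 genes of the G subfamily lay below the filter, among them ABCG2, or BCRP (ENSG00000118777, chr4:88090264-88231322, minus strand), a pump of many drugs and of urate at the apical face of gut cells. ABCG2 had 0.671, 1.01 and 0.926 FPKM in PD samples, against 0.219, 0.186 and 0.112 FPKM in DMSO samples. Every PD sample lay far above every DMSO sample, at low levels throughout. Recovered reads numbered 52, 78 and 70 in PD samples and 17, 16 and 10 in DMSO samples. Scaled by the samples' FPKM denominators, the read ratio of PD over DMSO was 5.09, with a 95% interval of 3.65 to 7.26 that covers counting error only. ABCG2 entered 2 other fits: with no filter on FPKM its log2 fold change was 0.67 (limma adjusted p = 0.0217 over 32355 genes), and with voom on genes with at least 10 reads in 3 samples, chosen after seeing the data, it was 2.33 (adjusted p = 0.000376). That last fit held 31 members, of which 5 were higher and 3 were lower, beside 31.2% of all its genes in either direction.

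The cholesterol exporters of this class were scarce. ABCG1, which passes cholesterol to high-density lipoprotein, lay between 0.521 and 0.649 FPKM in PD samples and between 0.574 and 0.759 FPKM in DMSO samples. ABCA1, the partner that starts such particles, had 8 reads over the 3 PD samples and 10 over the 3 DMSO samples. ABCG4 had 53 and 56 reads over PD and DMSO samples, and the sterol pair ABCG5 and ABCG8 had at most 8 and 6 reads in any library. No difference was detectable in these genes at this depth.

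Below the filter, 18 members had more than 10 reads over all samples. Besides ABCG2, 5 of them had a counting interval that did not include 1. The share of such intervals over all genes below the filter was not computed, so this count has no background. ABCA13, a very large gene, had 31 reads over PD samples and 5 over DMSO samples, a ratio of 6.79 with an interval of 2.62 to 22.4. ABCC9, a regulatory subunit of ATP-sensitive potassium channels, had 17 reads over PD samples, 10 of them in 1 library, and 0 over DMSO samples, which is at least 2.07-fold higher against a floor of 3 reads per library. ABCA10 had 269 reads over PD samples and 196 over DMSO samples, a ratio of 1.5 with an interval of 1.25 to 1.82, and its samples overlapped. By voom on at least 10 reads ABCA10 did not pass (adjusted p = 0.0982). It shares 318 exon bases with the more abundant ABCA5 on the same strand, so some of its reads may be those of ABCA5. ABCB6, a porphyrin transporter, had a ratio of 1.66 (47 reads over PD samples and 31 over DMSO samples, interval 1.03 to 2.7), and ABCA12, a lipid transporter of the skin barrier, one of 0.535 (21 and 43 reads, interval 0.302 to 0.921). Samples of the 2 groups overlapped for both, and the intervals leave out the spread between samples.

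P-glycoprotein, the best-known drug efflux pump, was not detected: its gene ABCB1 had 0 reads in all 6 samples, which allows at most 0.0293 to 0.0345 FPKM at 3 reads per library. ABCA8 had 0 reads as well. ABCA4, ABCB4, ABCB11, ABCC3 and ABCC12 had 1 to 10 reads over all samples, too few for any comparison. ABCB11 is the bile salt pump of the liver and ABCC3 a basolateral pump of conjugates. ABCB9, a lysosomal peptide transporter, lay between 0.381 and 0.495 FPKM in PD samples and between 0.407 and 0.587 FPKM in DMSO samples. ABCC8, the sulfonylurea receptor of the beta cell, ran from 0.217 to 0.450 FPKM in PD samples and from 0.388 to 0.432 FPKM in DMSO samples. ABCC6, whose loss causes calcification of elastic fibres, ABCB5, a drug efflux pump, ABCC11, a pump of the apocrine glands, and ABCA6 and ABCA9, of less settled substrate, made up the rest, at 0.464 FPKM or less in every sample.

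**Figure D4:**
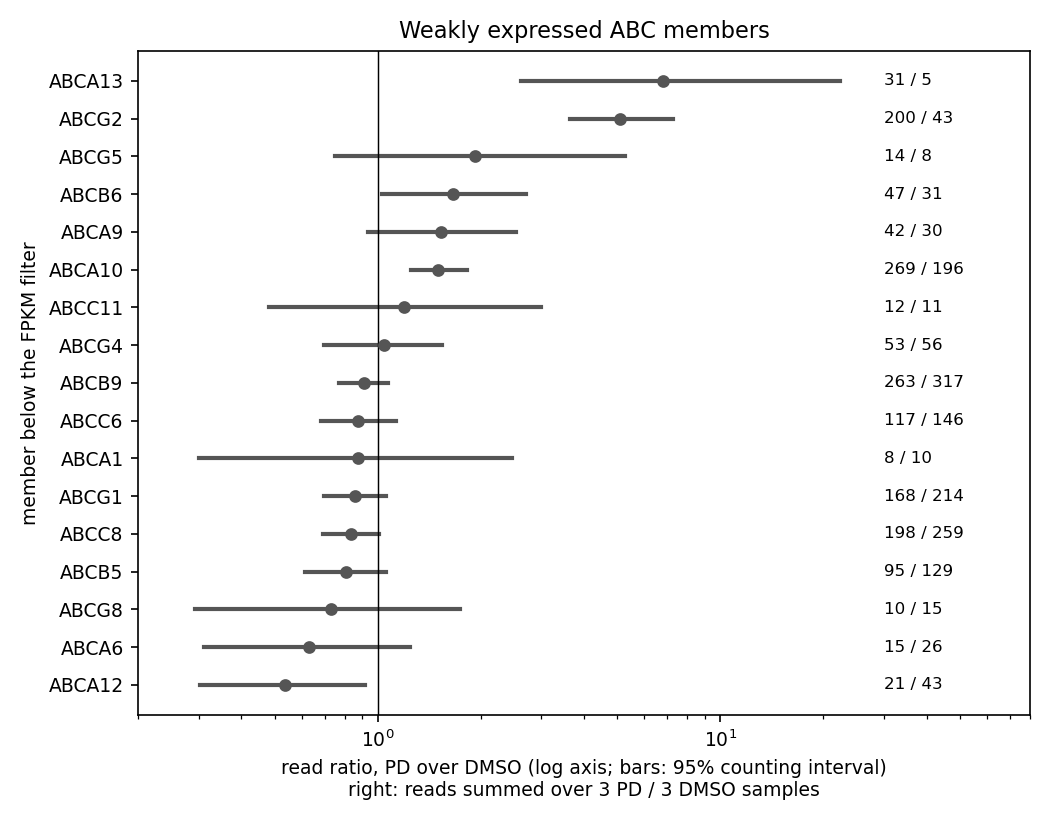
Ratio of recovered reads, PD over DMSO, for members below the filter that had reads in both groups and more than 10 reads in all (log axis, bars show the 95% counting interval), with the summed reads of the 3 PD and the 3 DMSO samples printed at the right. ABCG2 and ABCA13 lie well above 1, and most others span 1.

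To show the start regions beside the changes, the 250 bases before the RefSeq start site (GRCh38.p14) are given for 5 of the 7 members that rose or fell. RefSeq entries matched 35 of the 45 members and 17 of the 20 tested, and ABCC1 had none. Each is written 5′ to 3′ along the gene's own strand, in lower case, and capitals mark a match to TGACNNNGC, the core letters of the antioxidant response element.
ABCC2 promoter, chr10:99782390-99782639, plus strand: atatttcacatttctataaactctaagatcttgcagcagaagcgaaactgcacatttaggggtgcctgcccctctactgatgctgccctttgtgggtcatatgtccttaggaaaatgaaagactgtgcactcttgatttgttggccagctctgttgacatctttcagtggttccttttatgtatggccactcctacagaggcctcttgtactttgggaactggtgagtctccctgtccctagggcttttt
ABCB8 promoter, chr7:151028200-151028449, plus strand: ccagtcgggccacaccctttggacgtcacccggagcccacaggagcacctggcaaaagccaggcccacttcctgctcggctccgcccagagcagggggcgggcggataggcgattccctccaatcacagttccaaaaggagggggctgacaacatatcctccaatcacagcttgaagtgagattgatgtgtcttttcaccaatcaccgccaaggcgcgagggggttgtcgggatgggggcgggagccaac
ABCD2 promoter, chr12:39619804-39620053, minus strand: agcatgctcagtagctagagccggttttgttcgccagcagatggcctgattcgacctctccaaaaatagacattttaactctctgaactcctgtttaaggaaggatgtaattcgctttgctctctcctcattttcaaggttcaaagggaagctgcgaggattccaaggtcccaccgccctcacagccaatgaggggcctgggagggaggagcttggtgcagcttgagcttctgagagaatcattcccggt
ABCC4 promoter, chr13:95301452-95301701, minus strand: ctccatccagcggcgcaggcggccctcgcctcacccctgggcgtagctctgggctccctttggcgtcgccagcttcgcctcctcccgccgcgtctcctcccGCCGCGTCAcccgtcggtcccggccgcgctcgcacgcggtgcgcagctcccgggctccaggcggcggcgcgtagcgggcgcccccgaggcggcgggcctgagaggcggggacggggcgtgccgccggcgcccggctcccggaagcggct
ABCA3 promoter, chr16:2340729-2340978, minus strand: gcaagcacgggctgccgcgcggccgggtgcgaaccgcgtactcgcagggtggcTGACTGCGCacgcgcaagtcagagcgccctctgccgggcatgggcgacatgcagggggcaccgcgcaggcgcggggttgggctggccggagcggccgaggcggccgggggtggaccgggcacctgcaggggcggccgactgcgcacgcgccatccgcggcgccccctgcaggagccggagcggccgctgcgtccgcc

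The windows differ in base composition. G and C made up 45.6% of the ABCC2 window and 50.8% of the ABCD2 window, with 1 and 7 CG pairs. For ABCB8 the share was 61.6% with 13 CG pairs. The windows of ABCC4 and ABCA3 held 80.4% and 79.2% G and C, with 42 and 38 CG pairs. TGACNNNGC, searched on both strands, began 149 bases before the start of ABCC4 on the other strand and 197 bases before that of ABCA3 as printed. It was found in 6 of 35 member windows (17.1%) and in 11.0% of all 27305 promoters of the same length. Of the tested members it also occurred at ABCF1, ABCA2 and ABCD4, none of which passed the test. The E-box CACGTG occurred in 4 of 35 member windows (11.4%, against 6.49% of all promoters), and TCACNCCAC, a core of the sterol response element, in 0 of 35, against 0.875% of all promoters. A match describes letters and shows no binding.

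Genes that work beside ABC proteins were read in 10 lists of 121 genes, of which 91 were tested, 18 rose and 6 fell. Of all genes tested, 14.3% rose and 12.7% fell, and these shares stand as the background of each list below. The lists were chosen with earlier results of these data known, so their counts and medians are descriptions and test nothing. TAP1, TAP2 and CFTR are ABC proteins with other symbols and lie outside the naming rule. TAP1, which with TAP2 pumps peptides into the endoplasmic reticulum for MHC class I, had 18.7, 18.8 and 17.6 FPKM in PD samples, against 11.5, 11.5 and 11.5 FPKM in DMSO samples (log2 fold change 0.63 ± 0.08, limma adjusted p = 0.00170). TAP2 had 5.77, 7.99 and 7.45 FPKM in PD samples, against 5.30, 4.85 and 5.17 FPKM in DMSO samples, and stood at the threshold (0.39 ± 0.12, adjusted p = 0.0499). The chloride channel gene CFTR reached at most 0.0126 FPKM. In the list of MHC class I peptide loading, 7 of 12 tested genes rose and 0 fell, with a median log2 fold change of 0.41. HLA-B (1.00 ± 0.09, adjusted p = 0.000581), TAPBP, the bridge between TAP and class I (0.93 ± 0.12), and HLA-C (0.69 ± 0.10) rose, and reads of the HLA genes may be shared among near-identical copies.

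Of the carriers of organic solutes, many of which bring in what the efflux pumps expel, 4 of 9 tested rose and 0 fell (median log2 fold change 0.42). SLCO1B3, an uptake carrier of bile acids and drugs, had 5.20, 6.58 and 7.99 FPKM in PD samples, against 3.75, 2.23 and 2.45 FPKM in DMSO samples (1.00 ± 0.19, limma adjusted p = 0.00892). SLCO4A1 (0.71 ± 0.12) and SLC51A, a subunit of the basolateral steroid carrier (0.46 ± 0.12), rose as well. Of the xenobiotic receptor and conjugation genes, 2 of 8 tested rose and 1 fell. Those that rose, GCLC (0.58 ± 0.10, adjusted p = 0.00666) and GCLM (0.55 ± 0.14, adjusted p = 0.0265), encode the subunits of the enzyme that limits glutathione synthesis, the source of conjugates for ABCC1 and ABCC2. The glutathione transferase gene GSTA4 fell by 0.43 on the log2 scale (SE 0.12).

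The nuclear receptor pair LXR and RXR controls cholesterol exporters of the family, and 4 of 7 tested genes of that list rose while 0 fell (median 0.54). APOE, a carrier protein of cholesterol, had 229, 181 and 201 FPKM in PD samples, against 124, 134 and 136 FPKM in DMSO samples (0.62 ± 0.11, limma adjusted p = 0.00727). RXRB, a partner of LXR, rose by 0.62 ± 0.11, SREBF1, the regulator of fatty acid synthesis, by 0.54 ± 0.11, and SMPDL3A, a phosphodiesterase, by 0.55 ± 0.14. SMPDL3A rested on few reads, 49 to 67 in PD samples and 26 to 33 in DMSO samples. It passed the FPKM filter through its PD samples alone (1.39, 1.36 and 1.90 FPKM, against 0.915, 0.674 and 0.627 FPKM in DMSO samples). Its rise therefore gives the count and the median of this list no independent support. ABCA1 and ABCG1, the known LXR targets within the family, had 8 and 168 reads over PD samples and 10 and 214 over DMSO samples.

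Further lists match the intracellular members. Of 21 partners of mitochondrial iron-sulfur and haem synthesis, SLC25A37, the mitochondrial iron importer, rose by 0.66 ± 0.09 (limma adjusted p = 0.00287), and 2 fell. These were FDXR, the ferredoxin reductase (-0.53 ± 0.09), and FECH, the last enzyme of haem synthesis (-0.50 ± 0.10). Of 13 tested peroxisomal partners 1 fell, and 0 rose. It was EHHADH, an enzyme of peroxisomal beta-oxidation (-0.56 ± 0.12, adjusted p = 0.0139). The most abundant of that list, PHYH, ACBD5, PEX3 and PEX14, had adjusted p between 0.227 and 0.948. Of 14 translation partners EIF2AK4, a kinase of eIF2, fell (-0.42 ± 0.09, adjusted p = 0.0153), and ETF1, EIF2S3, EIF2S2 and GSPT1 did not pass. Of 6 cobalamin partners MMACHC fell (-0.46 ± 0.13, adjusted p = 0.0336). EHHADH, EIF2AK4 and MMACHC are named here because each was the only gene of its list to pass, which was seen after the test. KCNJ11, the pore subunit that pairs with ABCC8, had 2.72, 2.91 and 2.89 FPKM in PD samples, against 2.66, 2.40 and 2.28 FPKM in DMSO samples (0.16 ± 0.10, adjusted p = 0.263). Several of these calls were lost in other fits: TAP2 in 10 of 17, SMPDL3A, GSTA4 and SLC51A in 8, CALR, the chaperone calreticulin, and MMACHC in 7, GCLM in 6, EIF2AK4 in 4, SREBF1 in 2 and EHHADH in 1.

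**Figure D5:**
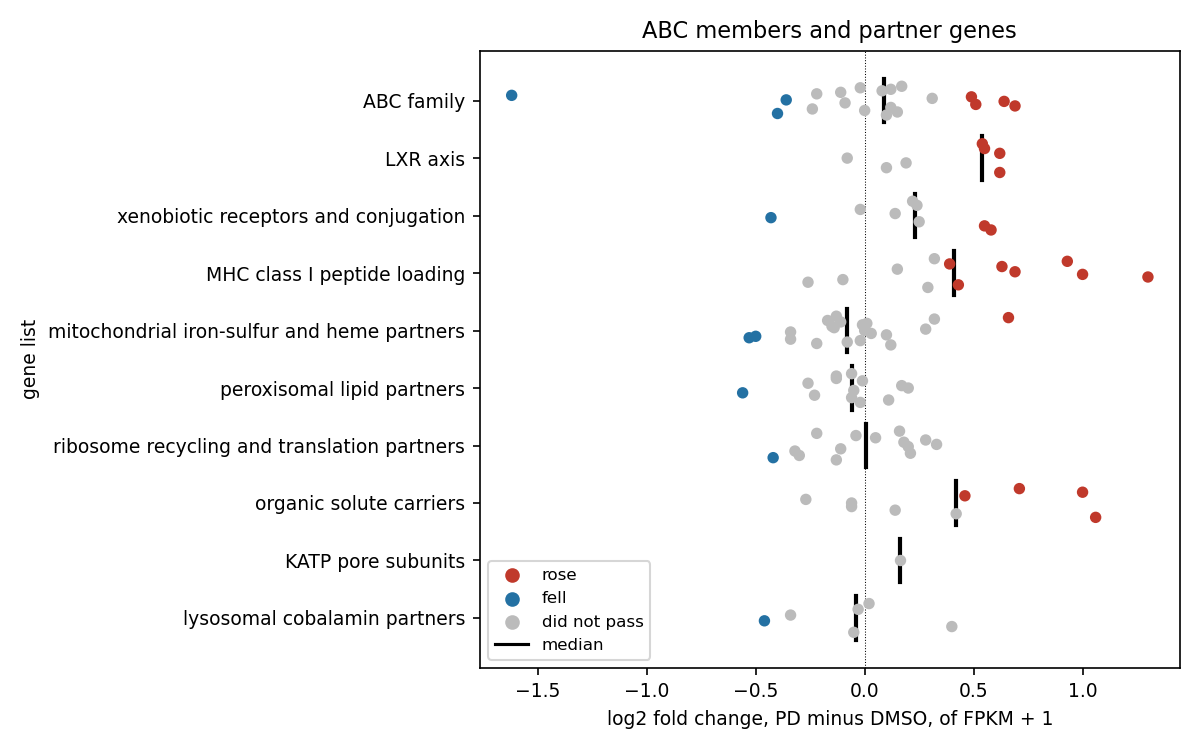
Log2 fold change of FPKM + 1, PD minus DMSO, of the tested ABC members and of the tested genes of 9 partner lists, 1 point per gene and a bar at each median. The medians of the MHC class I, organic solute carrier and LXR lists lie at 0.41, 0.42 and 0.54, and that of the ABC members at 0.09. The LXR median includes SMPDL3A, which passed the FPKM filter through its PD samples alone. The lists were chosen with earlier results of these data known.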

How the data were processed

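Polyadenylated RNA of 6 samples was sequenced with a stranded kit as paired reads, per the labels' protocols. The authors deposited FPKM per gene with the gene length beside it. Mouse builds (GRCm38, mm10) are named by the submitters' processing notes, but all 58735 gene identifiers, with start, end and strand, were those of human GENCODE release 29. The aligner, counter and strand setting, not given in the sources used here, leave it unknown whether reads of overlapping genes were told apart. Columns were matched to samples by group prefix and replicate number. FPKM times length was a whole multiple of 1 step per sample for 100% of values, within a tolerance of 0.01, so whole reads could be recovered. Denominators of the deposited FPKM were 0.947 to 1 times the gene total in PD samples and 1.03 to 1.1 times in DMSO samples.

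PD was compared with DMSO on log2(FPKM + 1) by the two-sided moderated test of limma 3.58.1 with a mean-variance trend, run in R 4.3.3, with Benjamini-Hochberg adjustment over 13579 genes. No covariate was used. Count models were not run. Alternatives were a pseudocount of 0.1, 3 other filters, equal FPKM totals, quantile scaling, voom on recovered reads with trimmed-mean scaling, a replicate block, array weights, a loess correction for GC content (span 0.3), and fits without samples. The scripts were tested on simulated data over several seeds: signs and large changes were recovered, and false calls of the FPKM fit ran somewhat above the nominal share, nearly all at genes with few reads. Intervals of read ratios are exact 95% conditional binomial ones, and read counts without molecular identifiers are not independent molecules. Sequences came from RefSeq tables. Named genes were the tested members, others by range, and up to 4 genes per partner list, those that passed with the largest change or, where fewer than 2 passed, the most abundant. A few genes within the rule were left out and are not reported here. Members, substrate classes and lists were chosen with earlier results of these data known.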

Additional observations from a re-analysis of the deposited data

How the results depend on the processing

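ABCC1, ABCC2, ABCB8 and ABCD2 kept their direction and their side of the threshold in all 17 alternatives, with log2 fold changes of 0.36 to 0.56, 0.5 to 0.71, 0.55 to 0.79 and -2.13 to -1.39. Of the 20 tested members, ABCD2 was the only one past 2-fold in each of them. ABCA3 lost its call in 7 alternatives and ABCC4 in 5; the cause was not tested. The 3 members that fell became 5 with equal FPKM totals, 1 with the replicate block and 1 to 2 without single samples (1 without PD replicate 1, PD replicate 2 or DMSO replicate 2). The 4 members that rose stayed between 3 and 5. All genes past the test, 3678 in the fit described, numbered 6301 with array weights and 2003 to 3534 without single samples, and 4558 without both PD replicate 3 and DMSO replicate 1. Partner genes that fell, 6 in that fit, numbered 17 with equal totals, 16 with array weights, 11 with the GC correction, 3 to 7 without single samples and 8 without that pair of samples, and those that rose 12 to 25 over all alternatives. Among the members named here, signs turned only for some that did not pass. Under equal totals ABCE1 was at -0.08, ABCF1 at -0.03 and ABCA2 at -0.04, on a scale whose median over all genes was -0.13. Quantile scaling put ABCE1 at -0.03, and array weights put ABCF2 at 0.01. Without single samples ABCE1 ran from -0.05 to 0.22, ABCF2 from -0.05 to 0.04 and ABCC10 from -0.20 to 0.01. Deviations of PD and DMSO samples with the same replicate number correlated at -0.388, 0.168 and -0.163. No pairing by number showed in these values. They cannot exclude one, because deviations of several samples also followed GC content. With the replicate block, 3 members rose and 1 fell, 1844 genes passed, and 12 partner genes rose and 2 fell. Leaving out 1 sample leaves 2 in its group, and depth limits what can be said of the 25 members below the filter.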

Other observations

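The table also holds 16 ABC symbols that are pseudogenes or antisense genes and no members. The only one tested, ABCA11P, had 0.723, 1.07 and 1.63 FPKM in PD samples, against 1.94, 1.28 and 1.40 FPKM in DMSO samples, and did not pass (log2 fold change -0.26 ± 0.19, limma adjusted p = 0.341). ABCA17P, a transcribed pseudogene on the plus strand whose span overlaps the 5′ end of ABCA3 on the minus strand (chr16:2339150-2426699 beside chr16:2275881-2340746, GRCh38), had 0.466, 0.495 and 0.457 FPKM in PD samples, against 0.366, 0.268 and 0.207 FPKM in DMSO samples. Its groups were separate in the direction opposite to ABCA3, at 45 to 50 reads per PD sample and 24 to 37 per DMSO sample, below the filter and with no test.

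Deviations of single samples from their group mean, taken over all genes, correlated with GC content at rho = -0.524 in PD replicate 3 and 0.606 in PD replicate 1, and at -0.637 in DMSO replicate 1 and 0.535 in DMSO replicate 3. ABCE1, whose transcripts hold 38.4% G and C, was highest of its group in PD replicate 3 and DMSO replicate 1. ABCA3, with 60.4%, was lowest of its group in both of these samples.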
